A study of Mus musculus with 16 samples.

Results

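Rod photoreceptors of mice aged 12 months (12M) were compared with rods of mice aged 3 months (3M), the step from young adult to mid-life. The comparison used all 4 libraries of each of these ages, which are 8 of the 16 libraries of the series, and the labels' ages chose them. All 16 libraries carry the same genotype and strain label, C57BL/6J (Nrlp-GFP), a reporter line whose Nrl promoter drives green fluorescent protein, and no group received a treatment. The other 8 libraries are 4 each from mice of 18 months (18M) and 24 months (24M), and they enter here for the estimate of spread and for later levels. Retinas were dissociated with papain, fluorescent cells were sorted, and total RNA of each sort was sequenced with a stranded kit for small inputs. The protocol also mentions mice that carry the reporter and lack Nrl, but no library has that label. The design text calls the libraries biological replicates. The sources used here give neither the sex of the mice nor whether a library is 1 mouse or a pool, so p-values measure the spread between these libraries.

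Rods are the light sensors of dim vision and the most abundant cells of the mouse retina. Light in their outer segment leads to activation of the G protein transducin, which switches on a phosphodiesterase that lowers cyclic GMP and closes the cation channel. The transcription factors Nrl, Crx and Nr2e3 establish and keep this gene programme. Rods do not divide, shed and rebuild their discs daily, and use much energy and polyunsaturated lipid, and in ageing mice their number and light response decline slowly. In sorted bulk RNA, fewer cells of a type and less RNA per cell cannot be told apart.

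The 8 libraries held 20404286 to 28497288 estimated counts matched to genes, and 16566 to 17111 genes reached a level of 1 CPM (counts scaled to the same total in each library). The summed level of 24 rod phototransduction genes was 54533 to 59416 CPM at 3M and 49207 to 59169 CPM at 12M. Defining markers of several other cells were at or near 0 in these 8 libraries. The microglial gene Tmem119 was at 0 in each, Rpe65 of the pigment epithelium reached 0.0404 CPM and haemoglobin Hba-a1 reached 0.149 CPM. Markers of Müller glia, the support cells of the retina, were present, with a sum over 24 genes of 310 to 478 CPM at 3M. At 12M that sum was 360, 396, 313 and 743 CPM in replicates 1 to 4, so replicate 4 lay above all 7 other libraries.

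12M replicate 4 stood apart from the other 3 libraries of its age in how its values depended on base composition. The GC slope, the change in a library's centred log2 CPM per 10 percentage points of transcript GC, was 0.382 in this library. It was -0.202, -0.203 and -0.234 in 12M replicates 1 to 3, and -0.099, -0.007, 0.155 and 0.286 in the 3M libraries. The length slope, the change per doubling of transcript length, was -0.047 in 12M replicate 4 against 0.027, 0.038 and 0.075 in the other 12M libraries and -0.016 to -0.041 at 3M. In length slope it thus lay below the 3M libraries, and the other 12M libraries lay above them. Its share of small noncoding RNA was 23.8%, the highest of the 8. The authors' deposited table of normalized CPM holds 13 libraries and lacks this one. Counts below are given with and without it.

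**Figure D1:**
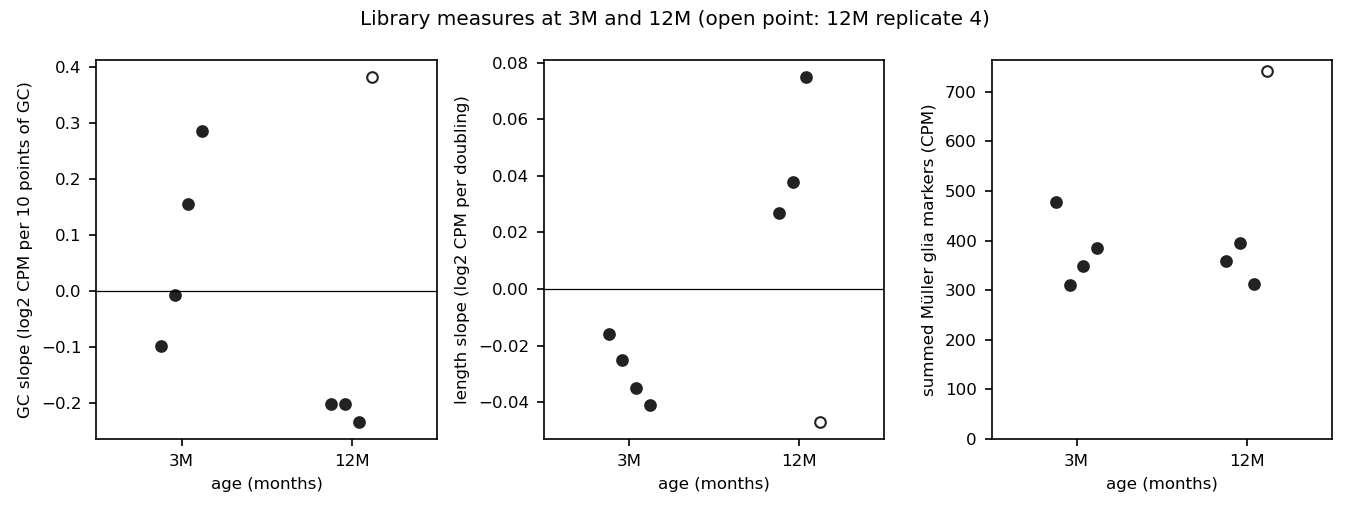
GC slope, length slope and summed Müller glia markers (vertical axes, units on each) in the 4 libraries of 3M and the 4 of 12M, 1 point a library. The open point, 12M replicate 4, has a GC slope of 0.382 and a marker sum of 743 CPM, and lies above the other 7 libraries in both.

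Of 12177 genes tested, 169 differed between 12M and 3M (1.39%), at a Benjamini-Hochberg adjusted p under 0.05 in edgeR's quasi-likelihood test. Of these, 119 were higher at 12M (0.977%) and 50 were lower (0.411%). The rises were also the larger changes: 40 of the 119 were at least 2-fold higher and 12 of the 50 were at least 2-fold lower. The filter, 5 CPM in at least 4 of all 16 libraries, also let in genes near 0 at 3M that were high only later. With no filter 128 genes were called higher and 71 lower. The part of the filter in the number and size of the rises was not tested. The median log2 fold change was 0.83 among genes called higher, -0.75 among genes called lower and -0.00 among all genes. In 167 of the 169 the 4 libraries of one age did not overlap the 4 of the other, against 620 of all 12177 genes (5.09%). Protein-coding genes made up 101 of the genes higher and 46 of those lower. For the gene lists below, the 1.39% called among all genes is the share to set a count against. In a short list, 0 or 1 called members are not read as a result about the list. The lists were chosen with earlier results of these data known, so larger counts describe the members and carry no test of the list.

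The number of calls changed with 12M replicate 4. Without it 273 genes were called higher and 260 lower, and each of the 169 was among them with the same sign. Among the 4 libraries of 12M, replicate 4 was the one nearest to 3M in 66 of the 119 genes higher and in 38 of the 50 lower. With the 13 libraries that the authors' normalized table holds, which also lack 18M replicate 3 and 24M replicate 3, the same test called 2368 genes higher and 2284 lower. Leaving out another library lowered the counts, to 83 higher and 25 lower without 12M replicate 3. Of the 169 genes, 95 were called whichever of the 8 libraries was left out.

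**Figure D2:**
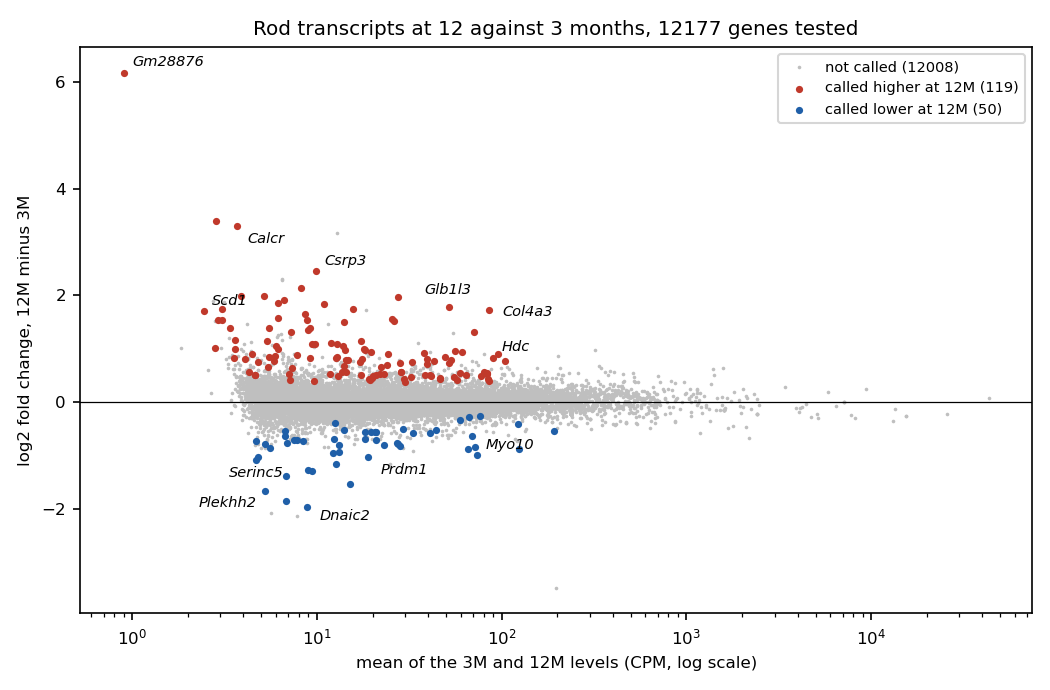
Log2 fold change (12M minus 3M, vertical axis) against the mean level of both ages (CPM, logarithmic horizontal axis) for the 12177 genes tested, 1 point a gene. Red points mark the 119 genes called higher and blue points the 50 called lower, and the rises reach further from 0 than the falls.

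The rod programme itself showed no called member of the phototransduction cascade. Of 24 phototransduction genes, 0 were called in either direction by edgeR, with a median log2 fold change of -0.13 and 19 members below 0. Gnat1, the alpha subunit of rod transducin, was at 4538, 5338, 5123 and 5624 CPM at 3M and at 3675, 3985, 3886 and 5488 CPM at 12M. Replicates 1 to 3 of 12M lay below all 3M libraries and replicate 4 among them (log2 fold change -0.28, SE 0.16, adjusted p = 0.66).

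Pdc encodes phosducin, which binds transducin's beta and gamma subunits. Its levels were 2396, 2229, 1804 and 1851 CPM at 3M and 1248, 1670, 1612 and 1550 CPM at 12M. The ages did not overlap, yet the gene was not called (log2 fold change -0.45, SE 0.13, adjusted p = 0.16 in edgeR). DESeq2 called it, with -0.43 and an adjusted p of 0.040. In the 13 libraries the edgeR fit called 12 of the 24 phototransduction genes lower and 2 higher. That fit called 2284 of all 12177 genes lower and 2368 higher, so the 1.39% is not the share for its counts. Its calls took in Gnat1 (-0.42, adjusted p = 0.0056) and Pdc (-0.45, adjusted p = 0.019).

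Among 16 tested transcription factors of photoreceptors, Prdm1 was the only one called, and it fell. Prdm1 encodes Blimp1, a repressor that in the developing retina holds back the bipolar cell fate in photoreceptor precursors. Its level was 26.1, 26.4, 25.0 and 24.1 CPM at 3M and 13.6, 12.9, 12.4 and 10.6 CPM at 12M. Every 12M library lay at about the same distance below the 3M libraries, 2.05-fold lower on average (log2 fold change -1.04, SE 0.15, adjusted p = 0.0011). Its fall did not rest on 12M replicate 4 (-0.97 without it). The bipolar genes that this factor represses in development were not called: of 9 tested bipolar markers 0 passed, with a median of 0.29 that was 0.03 without 12M replicate 4. In the 13 libraries 2 of the 9 were called higher, with a median of 0.03, where 2368 of all 12177 genes were called higher.

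The factors that define rods gave smaller differences. Nrl was at 708 ± 33.8 CPM at 3M and 625 ± 128 CPM at 12M (SD, n = 4; log2 difference -0.18, adjusted p = 0.71 in edgeR). Crx was at 1604 ± 50.1 and 1450 ± 173 CPM (-0.15, adjusted p = 0.69 in edgeR) and Nr2e3 at 632 ± 61.4 and 624 ± 56.6 CPM (-0.02, adjusted p = 0.94). In the 13 libraries Nrl (-0.33, adjusted p = 0.0043) and Crx (-0.23, adjusted p = 0.013) were called lower. No member was called among 18 genes of outer segment discs (median -0.04), 53 of cilium transport (median 0.03), 31 of the rod ribbon synapse (median -0.04) or 12 of the visual cycle (median -0.09).

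The genes of the extracellular matrix, integrins and proteases held 4 rises among 21 tested members and 0 falls, with a median of 0.17. The rises were Col4a3 and Col4a4, the chains that join Col4a5 in the collagen IV network of some basement membranes, Itgav, an integrin subunit that binds vitronectin, and Lamc1, a laminin chain. Col4a3 was at 51.3, 46.1, 37.9 and 24.1 CPM at 3M and at 148, 141, 178 and 60.9 CPM at 12M. The groups did not overlap, and replicate 4 was the lowest of both ages (log2 fold change 1.73, SE 0.28, adjusted p = 0.0037). Without 12M replicate 4 the rise was 1.96.

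Col4a4 went from 40.6 ± 5.28 to 101 ± 26.1 CPM (SD, n = 4; log2 difference 1.32, SE 0.16, adjusted p = 2.8e-04 in edgeR). Itgav rose from 12.7 ± 2.18 to 22.2 ± 0.608 CPM (SD, n = 4; 0.80, adjusted p = 4.0e-04 in edgeR). Lamc1 rose 1.35-fold (0.43, adjusted p = 0.0078), a call that was lost in the fit of the 8 libraries alone (adjusted p = 0.15) and with no filter (0.092).

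Col4a4 and Col4a3 lie head to head on chromosome 1, and the genes around them did not all move. In GRCm38, Col4a4 spans 82448423 to 82586849 on the minus strand and Col4a3 spans 82586921 to 82722059 on the plus strand. Irs1, which encodes an adaptor of the insulin receptor and lies at 82233101 to 82291416 on the minus strand, was at 7.52, 6.51, 6.27 and 15.9 CPM at 3M and at 16.6, 16.3, 16.6 and 25.1 CPM at 12M. Replicate 4 was the highest of both ages, and 3M replicate 4 lay just under the lowest 12M library. Irs1 rose 2.07-fold (log2 fold change 1.05, SE 0.24, adjusted p = 0.041), and this call was lost in 6 of the 8 fits that left out 1 library, with an adjusted p of 0.16 without 3M replicate 2. It was also lost in the 8 libraries alone (adjusted p = 0.27) and with a minimum of 1 CPM (0.050).

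Rhbdd1, a rhomboid protease gene between Irs1 and Col4a4, was at 15.1 ± 1.12 CPM at 3M and 15 ± 1.12 CPM at 12M (SD, n = 4; -0.01, adjusted p = 0.98 in edgeR). Mff, a mitochondrial fission gene on the other side of Col4a3, was at 85.1 ± 9.97 and 94.1 ± 10.3 CPM (SD, n = 4; 0.15, adjusted p = 0.72 in edgeR). The noncoding C430014B12Rik rose with Col4a3 (1.38, SE 0.27, adjusted p = 0.014, and 0.079 in the 8 libraries alone) and overlaps it over 30132 bases on the opposite strand. The sources used here do not give the strand setting of the counting, so reads of this pair cannot be assigned with certainty. The same holds for other genes of this text that overlap a gene on the opposite strand, which include Itgav, Ly75, Erap1, Bcl2, Park2, Gm15319, Podxl2, Mylk, Prok1, Elk3, Pdc, Nr2e3, Pate2, Tap2, Lamc1, Tbc1d9, Tle2, Tet3, Dnmt3a and Rhbdd1. Shorter overlaps, or overlaps with genes at a low level, were also found for Irs1, Spaca6, Rnf43, Glul, Tet2 and 4930579C12Rik. Rhbdd1 and Mff were chosen for this comparison after their values were seen. Across the genome, 29 of the 169 called genes (17.2%) had another called gene within 200 kb, against 767 of the 12177 tested (6.30%), and some such pairs overlap.

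**Figure D3:**
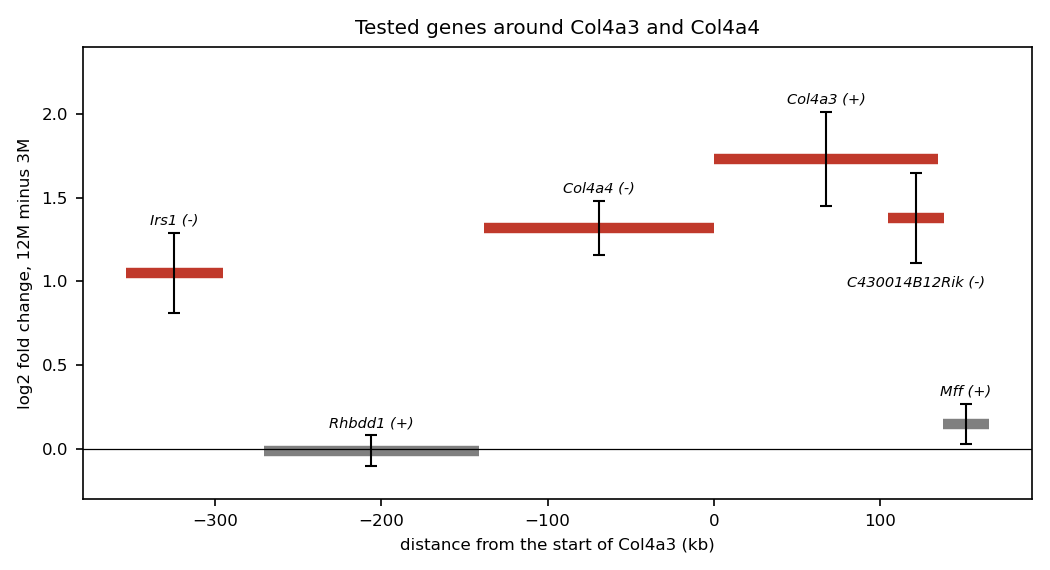
Log2 fold change (12M minus 3M, vertical axis, bars are the standard error) of the tested genes around Col4a3, drawn over their extent in kb from its start (horizontal axis), with the strand in parentheses. Red genes were called: Irs1, Col4a4, Col4a3 and C430014B12Rik lie between 1.05 and 1.73, and the grey genes Rhbdd1 and Mff at -0.01 and 0.15.

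The sequences below show the start regions of this neighbourhood and of Calcr, described next. Irs1, Col4a4 and Col4a3 were called higher there, with the uncalled Rhbdd1 between Irs1 and Col4a4. Calcr had the largest rise of the genes fixed for naming. The sequences come from the RefSeq promoter table of GRCm38.p6, are written 5′ to 3′ on the minus strand, and hold only bases before the transcript start. The stretch between the starts of Col4a4 and Col4a3 is chr1:82586850-82586920, 71 bases with a GC share of 69.0%. The Irs1 window is chr1:82291440-82291689 and that of Calcr is chr6:3764714-3764963, 1 of its 2 windows. Capitals mark matches, on either strand, to TAATCC (the CRX site), TGCTGA (a site of NRL and other Maf factors), AGGTCA (a nuclear receptor site), CACGTG (an E-box), TGACGT (the CRE core) or GAAAGT (a core of PRDM1 and IRF sites).
Col4a4 to Col4a3: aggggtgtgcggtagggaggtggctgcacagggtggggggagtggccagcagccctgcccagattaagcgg
Irs1: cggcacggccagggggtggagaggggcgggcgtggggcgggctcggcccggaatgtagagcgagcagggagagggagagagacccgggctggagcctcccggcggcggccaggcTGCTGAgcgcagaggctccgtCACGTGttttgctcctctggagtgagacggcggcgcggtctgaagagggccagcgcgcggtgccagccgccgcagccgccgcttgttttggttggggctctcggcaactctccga
Calcr: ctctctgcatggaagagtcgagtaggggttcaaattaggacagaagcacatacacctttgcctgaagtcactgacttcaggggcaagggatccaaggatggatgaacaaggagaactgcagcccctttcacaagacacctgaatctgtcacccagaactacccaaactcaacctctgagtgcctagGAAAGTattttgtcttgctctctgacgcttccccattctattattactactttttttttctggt

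The Irs1 window held TGCTGA 136 bases and CACGTG 115 bases before the start, and the printed Calcr window held GAAAGT 64 bases before it. The other Calcr window, chr6:3763624-3763873, is not printed and held none of the 6 motifs. The stretch between the collagen genes held none of them either. TAATCC was found in 10.2% of 98 windows of genes called higher, 8.00% of 50 windows of genes called lower and 6.16% of 11058 windows of all genes tested. TGCTGA was found in 23.5% of the higher, 10 of the 50 lower and 15.2% of all windows. AGGTCA was found in 13.3%, 14% and 12.7%, CACGTG in 10.2%, 14% and 9.84%, and TGACGT in 7.14%, 6.00% and 12.2%. GAAAGT was found in 12.2% of the higher, 5 of the 50 lower and 11.7% of all windows. The windows belong to 82 genes called higher and 39 called lower. These shares describe letters in a window and carry no test.

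Calcr encodes the calcitonin receptor, a G protein-coupled receptor known from bone and brain. It rose from under 1 CPM. Its levels were 0.899, 0.595, 0.643 and 0.597 CPM at 3M and 5.77, 7.85, 10.2 and 3.08 CPM at 12M. The lowest 12M library, replicate 4, still lay above the highest 3M library (log2 fold change 3.29, SE 0.43, adjusted p = 4.0e-04). The value was 2.69 with the length slope as a covariate. Among 31 tested genes of calcium stores and calmodulin kinases, Calcr and Itpr2 rose and 0 fell, with a median of 0.07. Itpr2, an inositol trisphosphate receptor of the endoplasmic reticulum, rose 1.46-fold (0.55, SE 0.11, adjusted p = 0.014), a call lost in 4 of the 8 fits without 1 library (adjusted p up to 0.066, without 12M replicate 3). It was also lost in the 8 libraries alone (adjusted p = 0.066) and on the authors' normalized CPM (0.14).

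Csrp3 encodes the muscle LIM protein, known from the Z-disc of striated muscle. Its levels were 2.95, 2.83, 3.54 and 2.98 CPM at 3M and 16.7, 15.1, 17.1 and 18.3 CPM at 12M. Both ages were tight and far apart, a 5.46-fold rise (log2 fold change 2.45, SE 0.15, adjusted p = 2.2e-07). The transcript Csrp3-201 held 68.3% of the gene's counts at 3M and 64.3% at 12M, and a retained-intron transcript held most of the rest.

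Glb1l3, a gene of the beta-galactosidase family, had the smallest p-value of the genes named here. Its levels were 25.9, 22.6, 23 and 22.2 CPM at 3M and 80.2, 80.3, 88.9 and 71.7 CPM at 12M. The libraries of each age lay close together, and the rise was 3.43-fold (log2 fold change 1.78, SE 0.09, adjusted p = 2.7e-08). It has 1 annotated transcript in the table. Without 12M replicate 4 the value was 1.83.

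Class I antigen presentation and innate sensing held 4 called genes, all of them higher. Of 9 tested antigen presentation genes 3 rose and 0 fell (median 0.18). Tap2 and H2-K1 passed the filter of 5 CPM only through the 18M and 24M libraries, where they were higher. With no filter the list held 3 rises among 22 genes. Erap1, the aminopeptidase that trims peptides in the endoplasmic reticulum, was at 11.9, 10.8, 10.2 and 10.5 CPM at 3M and 24.8, 23, 27.2 and 20.4 CPM at 12M. The ages were separate by a wide margin (log2 fold change 1.14, SE 0.14, adjusted p = 1.8e-04). Tap2, a subunit of the peptide transporter, rose from 2.39 ± 0.387 to 4.78 ± 0.343 CPM (SD, n = 4; 1.00, adjusted p = 0.0015 in edgeR). H2-K1, a class I heavy chain, rose from 1.57 ± 0.477 to 4.52 ± 1.51 CPM (SD, n = 4; 1.53, adjusted p = 0.0046 in edgeR). H2-K1 has close relatives, between which the authors' counting could split reads.

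Nod2, a cytosolic sensor of bacterial cell wall fragments, was the 1 gene called among 21 tested innate sensing and interferon genes, and it rose. It was at 2.09, 2.08, 3.62 and 3.28 CPM at 3M and 8.36, 9.70, 11.4 and 12.5 CPM at 12M. All 12M libraries lay above the 3M libraries (log2 fold change 1.92, SE 0.19, adjusted p = 3.2e-05). The median of that list was 0.01, close to the median of all genes. The 7 tested genes of complement, cytokine and injury signals held 0 calls. Ly75, an endocytic receptor best known from dendritic cells, rose from 7.22 ± 0.591 to 24.2 ± 4.71 CPM (SD, n = 4; 1.75, adjusted p = 9.8e-06 in edgeR). Markers of microglia and macrophages summed to 32.8 to 37.8 CPM at 3M and 34.5 to 42.4 CPM at 12M over 19 genes, and 0 of their 3 tested members were called. The part of such cells in these rises was not tested.

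The lists of fatty acid desaturation and elongation and of cholesterol handling had 1 called member each, where 1.39% of all genes tested were called. Scd1, the enzyme that makes monounsaturated fatty acids, was the 1 gene called among 17 of fatty acid desaturation and elongation. It was at 0.935, 1.34, 1.04 and 1.28 CPM at 3M and at 4.32, 3.78, 3.14 and 3.68 CPM at 12M, without overlap (log2 fold change 1.70, SE 0.17, adjusted p = 2.8e-05). Scd1 passed the filter of 5 CPM only through the 18M and 24M libraries. Abca1, which exports cholesterol, was the 1 called among 30 genes of cholesterol handling. It rose from 77.0 ± 2.73 to 131 ± 29.6 CPM (SD, n = 4; 0.77, adjusted p = 0.013 in edgeR, 0.053 without 3M replicate 3).

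Among 14 phospholipid flippases and Serinc proteins 2 fell and 0 rose. Serinc5, a membrane protein that scrambles lipids and is known for restricting retroviruses, was at 14.1, 12.9, 11.6 and 14.9 CPM at 3M and at 5.21, 5.04, 5.36 and 6.32 CPM at 12M. Every 12M library was below the 3M libraries by a margin larger than the spread of either age (log2 fold change -1.29, SE 0.11, adjusted p = 9.8e-06). Atp8b2, a P4-type flippase, went from 12.7 ± 2.60 to 5.28 ± 3.23 CPM (SD, n = 4; -1.28, adjusted p = 0.045 in edgeR). Its fall was -1.78 without 12M replicate 4. Leaving out any of the 7 other libraries ended the call, with adjusted p up to 0.19. So did the 8 libraries alone (adjusted p = 0.24), the length slope (0.053) and a minimum of 1 CPM (0.050).

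The lists of cytosolic chaperones, the Bcl2 family, mitophagy and Wnt receptors had 1 called member each, where 1.39% of all genes tested were called. Hspa2, a testis-enriched member of the Hsp70 family, was the 1 called of 36 cytosolic chaperones and rose from 4.77 ± 0.375 to 17.1 ± 5.68 CPM (SD, n = 4; log2 difference 1.84, adjusted p = 9.7e-05 in edgeR). The chaperone median was -0.10. Bcl2, an inhibitor of apoptosis, was the 1 called of 19 in its family and rose 1.63-fold (0.71, adjusted p = 0.024). Park2, the ubiquitin ligase parkin of mitophagy, was the 1 called of 32 mitophagy and mitochondrial dynamics genes and rose 1.35-fold (0.43, adjusted p = 0.045). The calls of Bcl2 (adjusted p up to 0.11) and Park2 (up to 0.17), each without 12M replicate 2, were lost in 6 of 8 fits that left out a library. Park2 was also not called in the 8 libraries alone (adjusted p = 0.12), with no filter (0.072) or with the length slope (0.054). Rnf43, which removes Wnt receptors from the membrane, was the 1 called of 14 Wnt receptor genes, rising from 4.52 ± 0.841 to 13.1 ± 1.84 CPM (SD, n = 4; 1.53, adjusted p = 3.2e-05 in edgeR).

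Of 17 tested sperm and axoneme genes 2 rose and 2 fell. The list was chosen with earlier results of these data known, so these counts are not a result about such genes. Pate2, of a family of sperm and epididymis proteins, rose from 2.09 ± 0.244 to 8.31 ± 2.81 CPM (SD, n = 4; log2 difference 1.99, adjusted p = 7.7e-04 in edgeR). Adam1b, a testis metalloprotease gene, rose from 4.16 ± 1.08 to 13.0 ± 2.39 CPM (SD, n = 4; 1.64, adjusted p = 9.7e-05 in edgeR). It lies inside Tmem116 on the opposite strand, and Tmem116 rose too (1.08, adjusted p = 4.0e-06). Dnaic2, an intermediate chain of outer dynein arms of motile cilia, was at 11.5, 15.6, 14.9 and 14 CPM at 3M and at 2.42, 3.15, 2.96 and 5.82 CPM at 12M. It had the largest fall of the called genes (-1.97, SE 0.28, adjusted p = 8.1e-04). Spaca6, needed for sperm and egg fusion, was at 22.4 ± 0.158 CPM at 3M and fell to 7.68 ± 1.35 CPM at 12M (SD, n = 4; -1.54, adjusted p = 2.2e-05 in edgeR). Most Spaca6 counts lay on retained-intron transcripts. Spaca6-212 held 62.5% at 3M and 65.9% at 12M, and Spaca6-211 held 22.9% and 14.5%.

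Other large rises came from genes of varied function. Dnah7c, an axonemal dynein heavy chain gene with near-identical copies, was at 14.2, 11.0, 11.2 and 8.23 CPM at 3M and at 52.3, 51.8, 52.2 and 17.9 CPM at 12M. Replicate 4 lay far below its age group and still above 3M (log2 fold change 1.96, SE 0.34, adjusted p = 0.0055). Slc29a4, a monoamine transporter, was at 2.34, 2.75, 2.37 and 4.69 CPM at 3M and at 8.32, 10.7, 9.23 and 25.5 CPM at 12M. Here replicate 4 was the highest library, and the log2 fold change of 2.14 was 1.64 without it.

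Gsc2, a homeobox gene, rose from 2.66 ± 0.319 to 9.69 ± 2.33 CPM (SD, n = 4; 1.86, adjusted p = 1.9e-05 in edgeR). Prok1, a secreted prokineticin, rose from 3.04 ± 0.381 to 7.93 ± 0.689 CPM (SD, n = 4; 1.38, adjusted p = 2.2e-05 in edgeR). Trim43c, from a family of near-identical genes, rose by 1.50 on the log2 scale (adjusted p = 7.5e-04), and Gm15319 by 1.56 (adjusted p = 0.016, and up to 0.077 without 3M replicate 3). Trim43c overlaps the noncoding 9330159M07Rik, which rose on the opposite strand (0.94, adjusted p = 0.0031).

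Of genes below the level that the naming rule asked for, or chosen after their values were seen, Gm28876 and Elk3 had large rises. The noncoding Gm28876 was at 0, 0.0372, 0.0402 and 0 CPM at 3M and at 1.53, 1.39, 1.66 and 2.54 CPM at 12M, so its start level is too low for a fold change to be given (adjusted p = 4.0e-06). Elk3, a transcription factor of the ETS family, rose from 1.41 ± 0.435 to 4.75 ± 0.609 CPM (SD, n = 4; 1.75, adjusted p = 4.9e-05 in edgeR). Both were separate between the ages in every library, and both passed the filter of 5 CPM only with the 18M and 24M libraries. Hdc, which makes histamine, rose from 64.7 ± 4.63 to 115 ± 2.49 CPM (SD, n = 4; 0.83, adjusted p = 9.8e-06 in edgeR), and the nicotinic receptor subunit Chrna7 by 0.88 (adjusted p = 8.3e-04).

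Of the other falls, Plekhh2, a pleckstrin homology protein gene, was at 12.3, 11.2, 9.68 and 9.04 CPM at 3M and at 2.79, 3.19, 2.29 and 3.48 CPM at 12M, a 3.61-fold fall without overlap (log2 fold change -1.85, SE 0.16, adjusted p = 9.8e-06). Myo10, an unconventional myosin of filopodia, was at 94.4, 99.9, 97.9 and 102 CPM at 3M and at 37.7, 53.3, 47.5 and 58.5 CPM at 12M. The 3M libraries were tight and every 12M library lay well below them (means 98.6 and 49.3 CPM, adjusted p = 6.7e-05). Mylk, the myosin light chain kinase, fell from 92.5 ± 8.53 to 51.4 ± 11.0 CPM (SD, n = 4; -0.85, adjusted p = 7.4e-04 in edgeR). Myo7a, an unconventional myosin whose loss causes Usher syndrome, fell by 0.57 on the log2 scale (adjusted p = 0.012). That call was lost without 12M replicate 3 (adjusted p = 0.058) or 3M replicate 3 (0.053), in the 8 libraries alone (0.066) and on the authors' normalized CPM with either pseudocount (0.15).

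Dusp26, a dual-specificity phosphatase, fell from 7.91 ± 0.781 to 2.52 ± 1.34 CPM (SD, n = 4; -1.67, adjusted p = 0.0052 in edgeR). Neurl1a, a ubiquitin ligase of the Neuralized family, fell from 9.81 ± 1.00 to 3.79 ± 1.49 CPM (SD, n = 4; -1.38, adjusted p = 0.0040 in edgeR). Tbc1d9, of a family that acts on Rab proteins, fell from 16.2 ± 2.10 to 8.35 ± 1.05 CPM (SD, n = 4; -0.96, adjusted p = 0.0010 in edgeR). Nrep, a neuronal regeneration related protein, fell by 0.93 on the log2 scale (adjusted p = 0.0018).

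For 3 further falls the call depended on single libraries. Podxl2, a sialomucin of the podocalyxin family, fell by 1.16 on the log2 scale (adjusted p = 0.035, up to 0.15 without 12M replicate 2, call lost in 6 of 8). Tle2, a transcriptional corepressor, fell by 0.86 (adjusted p = 0.025, up to 0.11 without 12M replicate 2, call lost in 5 of 8). Pvrl1, the adhesion molecule nectin 1, fell by 0.83 (adjusted p = 0.011, up to 0.056 without 12M replicate 3, call lost in 2 of 8). With 12M replicate 4 left out, each was still called. In the 8 libraries alone Podxl2 (adjusted p = 0.14) and Tle2 (0.20) were not called, nor was Dusp26 (0.050).

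Noncoding genes made up 18 of the 119 genes higher and 4 of the 50 lower. The largest rises under the naming rule were 4930579C12Rik (log2 fold change 1.58), Gm43263 (1.52) and C430014B12Rik (1.38). Gm43263 went from 13.5 ± 0.543 to 38.8 ± 8.41 CPM (SD, n = 4; adjusted p = 6.7e-05 in edgeR). The small nucleolar RNA Snora24 fell from 85.6 ± 7.91 to 46.2 ± 11.4 CPM (SD, n = 4; -0.89, adjusted p = 0.013 in edgeR). It was at 78.6 ± 15.1 CPM at 24M. The share of all small noncoding RNA was 16%, 15.3%, 13.3% and 23.8% in the 12M libraries and 18.4% to 20.9% at 3M. Snora24 was at 43.4, 43.3, 35.7 and 62.4 CPM in those 12M libraries, lowest and highest in the same libraries as that share, and the part of the share in its fall was not tested. 1110038B12Rik fell from 161 ± 11.4 to 87.7 ± 15.7 CPM (SD, n = 4; -0.88, adjusted p = 0.029 in edgeR). Gm26109 fell by 0.81 (adjusted p = 0.016). The calls of Snora24, 1110038B12Rik and Gm26109 were lost in 4, 6 and 3 of the 8 fits without 1 library, each with its highest adjusted p (0.059, 0.12 and 0.075) without 12M replicate 3.

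Enzymes of DNA methylation were not among the called genes. Of 23 tested genes of DNA methylation and the Gadd45 family 0 were called, against 1.39% of all genes tested, and their median was 0.01. Tet1, which oxidizes methylcytosine, was at 7.47 ± 0.403 CPM at 3M and 6.02 ± 0.482 CPM at 12M (SD, n = 4; log2 difference -0.31, adjusted p = 0.29 in edgeR). Its ages did not overlap, and in the 13 libraries it was called (-0.33, adjusted p = 0.035). The maintenance methyltransferase Dnmt1 was at 96.1 ± 11.5 and 91.2 ± 8.94 CPM (adjusted p = 0.79), Dnmt3a at 268 ± 12.4 and 236 ± 15.9 CPM (adjusted p = 0.39), Tet2 at 227 ± 22.3 and 232 ± 56.9 CPM (adjusted p = 0.96) and Tet3 at 522 ± 39.4 and 450 ± 26.8 CPM (adjusted p = 0.46). Histone-modifying enzymes held 0 calls among 64.

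Energy and protein synthesis genes showed small differences shared by most members, without a called gene. Of 34 complex I subunits 33 had a log2 fold change below 0 (median -0.12), as had 42 of 44 subunits of complexes II to V (median -0.17) and 73 of 76 cytosolic ribosomal proteins (median -0.18). Mitochondrial ribosomal proteins had a median of -0.15, proteasome subunits -0.15 and glycolysis -0.20. All 13 tested transcripts of the mitochondrial genome lay above 0 (median 0.27). The medians were larger without 12M replicate 4, at -0.30 and -0.34 for the complexes, -0.43 for ribosomal proteins and 0.42 for the mitochondrial genome.

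With the length slope of each library as a covariate these medians were 0.04, 0.01, 0.03 and -0.07. The direction thus depended on whether the length slope entered the fit. That slope was computed from the levels of these same libraries. It was 0.027 to 0.075 in 12M replicates 1 to 3, -0.047 in 12M replicate 4 and -0.016 to -0.041 at 3M. The covariate thus takes up part of any age difference shared by transcripts of like length, and these cannot be told apart here. In the 13 libraries 64 of the 76 ribosomal proteins were called lower and 1 higher, and 23 and 32 of the complex subunits were called lower. That fit called 2284 of all 12177 genes lower and 2368 higher. The part of the length slope in these differences was not tested further.

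**Figure D4:**
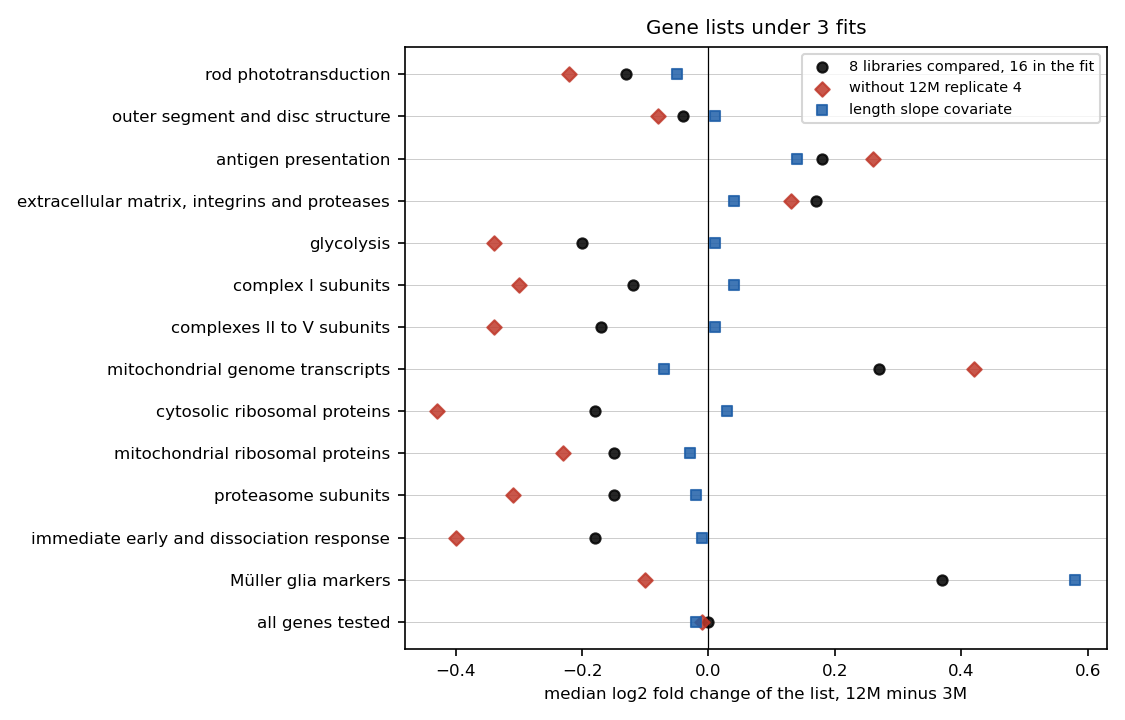
Median log2 fold change (12M minus 3M, horizontal axis) of the tested members of 13 gene lists and of all genes tested, in the fit of all libraries (black circles), without 12M replicate 4 (red diamonds) and with the length slope as a covariate (blue squares). Complex I and ribosomal protein medians move from -0.12 and -0.18 to 0.04 and 0.03 with the covariate, while antigen presentation stays above 0 in all 3.

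Immediate early genes, which respond to tissue dissociation, held 0 calls among 21, with 19 members below 0 (median -0.18). Their median was -0.40 without 12M replicate 4 and -0.01 with the length slope as a covariate. In the 13 libraries 9 of the 21 were called lower, where 2284 of all 12177 genes were. The clock genes held 0 calls among 23 (median -0.03), the unfolded protein response 0 among 31, antioxidant enzymes 0 among 27, autophagy and lysosome genes 0 among 52 and splicing factors 0 among 52. The TCA cycle held 0 among 31, mitochondrial fatty acid oxidation 0 among 22 and base excision repair 0 among 19. Of all genes tested, 1.39% were called. At an unadjusted p under 0.05, 1114 of all genes passed in edgeR (9.15%). DESeq2 called 313 genes in all.

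Markers of Müller glia, cones and bipolar cells had medians above 0 that depended on 12M replicate 4. Of 16 tested Müller glia markers, Car2, a carbonic anhydrase, was called higher (log2 fold change 0.39), and the median of the list was 0.37. Glul, the glutamine synthetase of these cells, was at 113, 61.9, 73.1 and 87.4 CPM at 3M and at 66.7, 86.5, 56.0 and 203 CPM at 12M, so only replicate 4 lay outside the range of 3M on the high side. Without 12M replicate 4 the median of the list was -0.10. Cone markers held 0 calls among 9, with a median of 0.20 and 0 members below 0. Without 12M replicate 4 that median was -0.05 and 6 of the 9 lay below 0. In single libraries, the cone arrestin Arr3 reached 22.4 CPM in 12M replicate 4 against 6.10 to 17.1 CPM at 3M. The ranges of the summed markers overlapped between 3M and 12M for cones, bipolar cells and endothelial cells with pericytes.

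Levels at 18M and 24M, given beside those at 12M and sharing the 12M libraries, differed in course between genes. Between 24M and 12M the same fit called 33 genes (0.271%), and between 18M and 12M it called 1 (0.00821%). Glb1l3 was at 80.3 ± 7.03 CPM at 12M, 87.5 ± 5.29 CPM at 18M and 86.2 ± 8.29 CPM at 24M (SD, n = 4 each; 24M against 12M 0.10, adjusted p = 0.87 in edgeR). Plekhh2 was at 2.94 ± 0.517, 2.34 ± 0.300 and 2.87 ± 0.459 CPM (SD, n = 4 each; -0.03, adjusted p = 0.97 in edgeR). Csrp3 (0.37, adjusted p = 0.57), Gsc2 (0.29, adjusted p = 0.80), Dnah7c (0.02, adjusted p = 0.99) and Myo10 (-0.28, adjusted p = 0.63) were not called in that step either, which does not show that their levels were equal.

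Scd1, in contrast, differed between 12M and 24M. It was at 3.73 ± 0.483 CPM at 12M, 5.98 ± 0.857 CPM at 18M and 8.84 ± 0.974 CPM at 24M (SD, n = 4 each; 24M against 12M 1.24, adjusted p = 7.4e-04 in edgeR). Prok1 (1.03, adjusted p = 7.4e-04), Rnf43 (0.97, adjusted p = 0.0063), Ly75 (0.93, adjusted p = 0.0098), Adam1b (0.95, adjusted p = 0.027) and Tap2 (0.83, adjusted p = 0.016) rose again. Prdm1 was at 12.4 ± 1.26 CPM at 12M, 9.12 ± 0.842 CPM at 18M and 6.23 ± 1.75 CPM at 24M (SD, n = 4 each; -0.99, adjusted p = 0.0099 in edgeR). Serinc5 (-1.11, adjusted p = 2.9e-04), Tbc1d9 (-1.46, adjusted p = 1.9e-04), Nrep (-0.74, adjusted p = 0.047) and Atp8b2 (-1.65, adjusted p = 0.048) fell again. The noncoding 1110038B12Rik went the other way, to 204 ± 40.6 CPM at 24M (1.22, adjusted p = 0.0099).

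**Figure D5:**
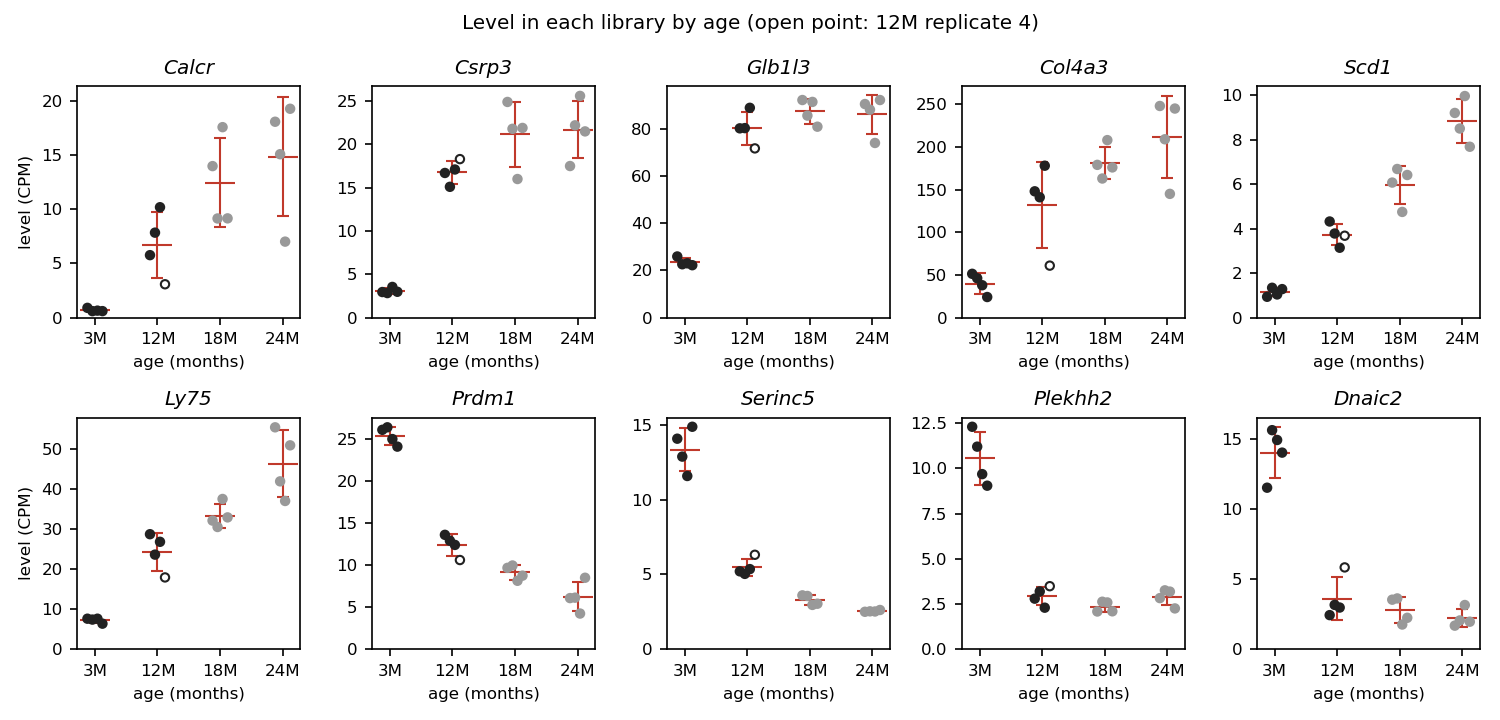
Level (CPM, vertical axis) of 10 genes in each library of the 4 ages (horizontal axis, months), with the mean and SD in red. Black points are the 3M and 12M libraries compared here, with 12M replicate 4 open, and grey points are later ages. All 10 genes are separate between 3M and 12M, and Glb1l3 and Plekhh2 stay near their 12M level while Scd1 and Serinc5 move on.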

How the data were processed

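The authors deposited estimated counts per transcript for 16 RNA libraries, of which 8 (3M and 12M) are compared here. The submitters' processing notes list GRCm38.p4 as the build, and kallisto 0.42.5, limma 3.32.2 and edgeR 3.13.9 as tools, without saying what each did. The authors' deposited tables of CPM signal (936588 to 1055611 per library) and of normalized CPM signal (11826 genes, 13 libraries) served for checks and alternatives. Their table of log2 differences, an F score and p-values, per the file headers, was not used. The sources used here do not state how the authors summed transcripts, which annotation they counted on, or whether strand was used.

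Of 113468 transcripts, 111896 matched GENCODE genes of GRCm38 (unmatched 0.730% to 1.08% of counts). Sums over 45038 genes were rounded. Totals were 20579144 to 28791777 counts. A gene was tested if 4 or more libraries had 5 CPM. edgeR 4.0.16 in R 4.3.3 (TMM factors, quasi-likelihood, a mean per age over 16 libraries) gave fold changes, and a Benjamini-Hochberg adjusted p under 0.05 over all genes tested is a call. No pair of libraries agreed within sampling noise (lowest chi-square per degree of freedom 8.99). The scripts were tested on simulated data.

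Names were taken by a rule: of called protein-coding genes whose ages did not overlap and whose mean over the 8 libraries reached 5 CPM, the 15 largest rises and falls. It added 3 noncoding genes each way, up to 4 called members of each list, and a set chosen by name (rod, cone, glial and methylation genes). Members and the gene lists were chosen with earlier results of these data known. Names outside the rule were chosen after their values were seen: Elk3, Gm28876, Hdc, Chrna7, Myo7a, Tmem116, 9330159M07Rik, Rhbdd1 and Mff. Some genes that the rule or the set names are not reported here.

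Alternatives were DESeq2 1.42.0 or its size factors alone, limma 3.58.1 voom with quality weights, a lower filter (1 CPM) or none, and limma on the deposited normalized CPM (pseudocount 0.5 or 2). Others were the 8 libraries alone, 13 libraries, a block for the replicate number, length or GC slopes as covariates, and each library left out.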

Additional observations from a re-analysis of the deposited data

Results flagged for a closer look

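In groups of 4 libraries a library was singled out where its gap to the nearest other was above Dixon's 95% limit as a share of the whole range. Of 186 groups checked, 19 passed, where chance flags about 1 in 20, and 14 of the 19 were 12M replicate 4.

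This library was at 0.382 in GC slope (the nearest other 12M library at -0.202), at 40.8 on the first principal component (-18.5) and at -3.42 on the second (2.30). Its phototransduction genes summed to 59169 CPM, against 50421 in the next 12M library. Gnat1 was at 5488 CPM there (next 3985). Above the other 12M libraries it also had Irs1 at 25.1 CPM (next 16.6), Slc29a4 at 25.5 CPM (next 10.7), Podxl2 at 13.4 CPM (next 6.35), Tbc1d9 at 9.90 CPM (next 8.06) and Mylk at 67.7 CPM (next 48.3). Below them it had Dnah7c at 17.9 CPM (next 51.8), Tet2 at 147 CPM (next 254), Tet3 at 410 CPM (next 459) and Dnmt3a at 212 CPM (next 243).

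In the other libraries, 12M replicate 3 had 1110038B12Rik at 64.3 CPM (next 93.2). 3M replicate 4 had Irs1 at 15.9 CPM (next 7.52) and Dusp26 at 9.08 CPM (next 7.62). 3M replicate 1 had Calcr at 0.899 CPM (next 0.643), and 3M replicate 3 had Tet1 at 8.07 CPM (next 7.29).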

How the results depend on the processing

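In place of 119 genes higher and 50 lower, DESeq2 called 214 and 99, limma voom with quality weights 2878 and 2949, and the 13 libraries 2368 and 2284. The authors' normalized CPM gave 2085 and 1839 with a pseudocount of 0.5 and 2096 and 1848 with 2. The 8 libraries alone gave 74 and 32. The GC slope as a covariate gave 354 and 248, and the length slope 166 and 84. Leaving out each library in turn gave 83 to 273 genes higher and 25 to 260 lower, the highest without 12M replicate 4. DESeq2 size factors, a minimum of 1 CPM and no filter stayed within 1.5 times, with 127 and 47, 124 and 59, and 128 and 71. All 169 genes kept their sign in each alternative that tested them, and 77 were called in all 20. The cause of these differences in count was not tested.

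With the replicate number as a block the counts were 99 and 37, and of the genes named the calls of Bcl2 (adjusted p = 0.072), Park2 (0.067) and Podxl2 (0.064) were lost. Same-numbered libraries of 3M and 12M deviated from their group means with correlations of 0.230, 0.285, -0.147 and 0.713, so the numbers were not taken to pair them. 3M replicate 4 and 12M replicate 4 correlated best with each other.

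Among genes not called, directions turned as follows, and the cause was not tested. With the length slope Nrl was 0.01, Nr2e3 0.04, Tet2 -0.34, Dnmt1 0.05 and Mff -0.01. With the GC slope Nr2e3 was 0.04, Dnmt1 0.01 and Tet2 -0.22, the last called (adjusted p = 0.043). In the 13 libraries Arr3 was -0.04, Opn1sw -0.35, Glul -0.27 and Rhbdd1 0.03. On the authors' normalized CPM Opn1sw was -0.29 and -0.25, Glul -0.27 and Rhbdd1 0.01, and with voom quality weights Opn1sw was -0.07, Glul -0.07 and Rhbdd1 0.04. Rhbdd1 was 0.01 with DESeq2 and with its size factors. Leaving out each library in turn gave -0.08 to 0.05 for Nr2e3, -0.06 to 0.19 for Tet2, -0.05 to 0.03 for Rhbdd1, -0.04 to 0.69 for Arr3, -0.35 to 0.58 for Opn1sw and -0.27 to 0.50 for Glul, the lowest of the last 3 without 12M replicate 4. Depth limits genes of a few CPM, such as Calcr and Gm28876 at 3M, whose fold changes moved most with the pseudocount (Calcr 1.90 and Gm28876 0.81 with 2).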

Other observations

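Hfe, the haemochromatosis gene that tunes iron uptake, rose from 17.9 ± 2.03 to 25.8 ± 2.44 CPM (SD, n = 4; log2 difference 0.53, adjusted p = 0.0078 in edgeR). It was chosen after its values were seen, and the fit of the 8 libraries alone did not call it. Near Trim43c on chromosome 9, the noncoding Gm2396 rose by 1.31 on the log2 scale (adjusted p = 0.0098), also chosen after its values were seen. Gm29562 (0.22, adjusted p = 0.63) and Trim43b (0.12, adjusted p = 0.83) of the same region were not called. These genes have near-identical copies or overlap, so reads may be split between them.

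Transcript shares of some genes differed between the ages. Nod2-202 held 97.2% of Nod2 counts at 3M and 82.7% at 12M, with ranges of 93.1% to 100% and 69.4% to 89.1% over the 4 libraries. Atp8b2-204, a minor retained-intron transcript, held 7.72% at 3M and 19.7% at 12M, with overlapping ranges of 5.72% to 10.7% and 9.18% to 34.3%. For Mylk-201 the shares were 98.8% and 96.5%, with ranges of 98.1% to 99.2% and 95.5% to 97.6%. These are estimates by the authors' counting and carry no test.

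Some genes had large differences that were not called because libraries of the same age differed. Gm29216, a pseudogene, was at 2.57 ± 1.83 CPM at 3M and 23.2 ± 14.1 CPM at 12M (SD, n = 4; 3.17, adjusted p = 0.12 in edgeR). Pim2, a kinase gene, was at 12.8 ± 7.46 and 2.84 ± 3.48 CPM (SD, n = 4; -2.13, adjusted p = 0.44 in edgeR). Gm23766, a microRNA gene in the annotation, was at 360 ± 456 and 32.2 ± 15.1 CPM (SD, n = 4; -3.48, adjusted p = 0.30 in edgeR). These 3 genes were chosen after their values were seen.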
